A study of Arabidopsis thaliana with 4 samples.

Results

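The systemic wound response of opr3, an Arabidopsis thaliana mutant line, is described here as the difference between leaves of wounded opr3 plants and leaves of opr3 control plants. For each probe set, the group of short oligonucleotides that reports 1 transcript, the log2 level on the opr3 control array was subtracted from that on the opr3 wounded array. The response therefore uses 2 of the 4 arrays of the study, 1 array a side. Only probe sets with a log2 level of 4.73 or more on at least 1 of the 4 arrays were used, 14599 of the 22746 plant probe sets (64.2%). Probe sets at least 2-fold apart, a log2 difference of 1, are called higher or lower. With 1 array per group there is no spread between plants to set a difference against, so no difference below has been tested and none carries an error.

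The groups were wounded opr3 plants, opr3 control plants, wounded wt (wild type) plants and wt control plants. All were 6 weeks old and were grown at 21 °C under white light, in days of 10 h light and 14 h dark. In the wounded groups some rosette leaves were crushed over the midvein with tweezers, and 2 h later RNA was taken from leaves of the same plants that had not been crushed. Control plants were left unwounded. The ATH1 array was hybridised with biotin-labelled cRNA made from 10 ug of total RNA. The sources used here do not give the opr3 allele, the accession background of either line or the number of plants behind an array. For wounded opr3 the submitters' treatment note names WT plants, and the title was followed in placing the array.

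When a leaf is wounded, electrical, calcium and chemical signals travel to other leaves, which then switch on defence and stress genes. Jasmonates are the best known hormones of this response. In the chloroplast the fatty acid linolenic acid is turned into the cyclopentenone 12-oxophytodienoic acid (OPDA). OPR3, the OPDA reductase of peroxisomes, acts on OPDA on the way to jasmonic acid, whose isoleucine conjugate is sensed by the COI1 and JAZ proteins. Plants that lack OPR3 function accumulate OPDA and make little jasmonate. The response is described for the opr3 line, and its link to an impaired OPR3 step was not tested. OPR3 had no probe set named in the annotation table, so the mutated gene itself was not analysed here.

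The tissue label was compared with marker genes. The 6 leaf mesophyll markers that had a name, of 16 written, lay at log2 levels of 11.64 to 13.51 on the opr3 wounded array and 11.98 to 13.57 on the opr3 control array. The root marker PYK10 lay at 3.74 and 3.65 on the same arrays, under the filter level. No guard cell, xylem, flower, seed or bundle sheath marker had a name. Spiked-in bacterial transcripts differed little between the opr3 arrays in the balance of their 5′ and 3′ ends (dap at -1.27 on the wounded and -1.24 on the control array), whereas dap was at -2.04 in wounded wt and -1.15 in wt control. Values of the wounded wt array are given beside those of opr3 and also enter the differences between the lines below. The part of this imbalance in them was not tested. In whole leaves, fewer cells of a type and less RNA per cell cannot be told apart.

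Distant leaves of wounded opr3 carried more transcripts at raised than at lowered levels. In wounded opr3 708 probe sets (4.85%) were at least 2-fold higher than in opr3 control, and 245 (1.68%) were at least 2-fold lower. In wt the same limit gave 576 higher (3.95%) and 261 lower (1.79%). In both lines the excess of higher probe sets was greater among larger differences. In opr3 279 were higher and 36 lower past 3-fold, 152 and 11 past 4-fold, and 45 and 0 past 8-fold. In wt these were 251 and 43, 138 and 10, and 49 and 2. At least 16-fold higher in opr3 were 16 probe sets. The central 95% of all log2 differences ran from -0.89 to 1.40 around a median of -0.03. Near the limit, 115 of the higher probe sets lay within 0.1 above it and 159 others within 0.1 below it.

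Levels in opr3 control differed between the higher and the lower probe sets. That level is also the value subtracted, so low control levels favour higher calls by construction and the counts are a description. The probe sets used were ordered by their opr3 control level and divided into 5 groups of equal size. The group of lowest level held 273 higher and 5 lower probe sets, and the group of highest level held 71 higher and 77 lower. Median log2 levels of the higher set were 7.45 in wounded opr3 and 5.68 in opr3 control. Those of the lower set were 6.13 and 7.51, and those of all probe sets used were 6.72 and 6.68. Of the 708 higher probe sets, 165 (23.3%) had an opr3 control level under the filter level, against 856 (5.86%) of all probe sets used. The fold of such a probe set is given with the word about. The filter let in 155 probe sets only through the opr3 wounded array, and 23 of these were past the limit.

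**Figure D1:**
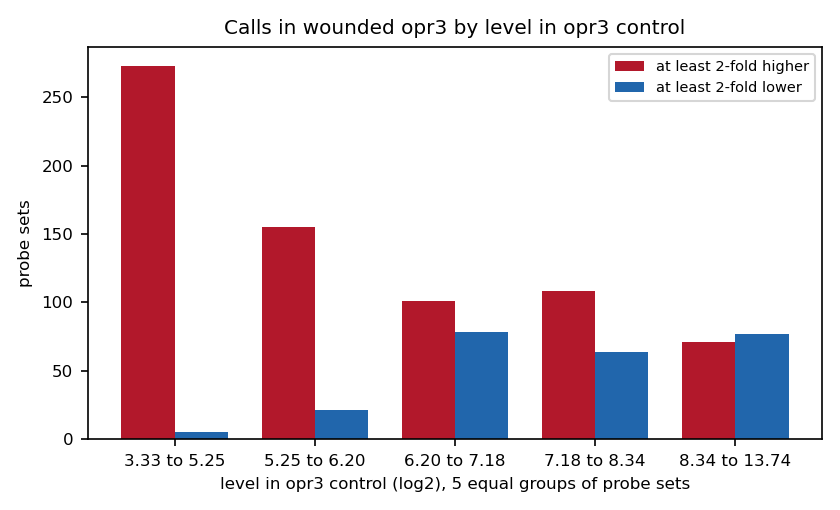
Number of probe sets at least 2-fold higher (red bars) or lower (blue bars) in wounded opr3 than in opr3 control, for 5 equal groups of the 14599 probe sets ordered by log2 level in opr3 control (range under each pair of bars). Higher calls number 273 in the group of lowest level and 71 in that of highest, lower calls 5 and 77.

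Of the 708 higher probe sets 328 had exactly 1 named gene, and of the 245 lower 135 did. Among the 25 largest named upward differences, folds ran from 6.79 to 42.1. Only 5 of these genes have a symbol beyond their locus tag: LTI30, BGLU40, PRN, COR15A and CHI. The strongest, AT5G62360, was at a log2 level of 10.43 in wounded opr3 and 5.04 in opr3 control, a 42.1-fold difference, and at 10.68 in wounded wt and 5.12 in wt control. In wt 23 of the 25 were past the limit in the same direction. The response was the larger one in opr3 for 20 of the 25, and by at least 2-fold for 12. In 20 of them opr3 control lay below wt control, and in 8 opr3 control was under the filter level. Ranking by a difference that subtracts opr3 control favours low opr3 control values and larger responses in opr3, so these counts are a description.

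These 25 genes fell into patterns by array. AT5G55180 was nearly the same in both lines, at 10.10 in wounded opr3 and 6.19 in opr3 control, against 10.11 in wounded wt and 6.18 in wt control. AT4G30650 behaved alike, with 9.9 in wounded opr3 and 5.63 in opr3 control, against 10.04 and 5.8 in wt. A different pattern was seen for AT2G43620, at 9.37 in wounded opr3 and 5.10 in opr3 control but 7.71 in wounded wt and 6.52 in wt control, so that its 19.3-fold difference in opr3 stood beside a 2.29-fold difference in wt. Its opr3 control value was the lowest of the 4 and its opr3 wounded value the highest. AT4G00700 was about 7.24-fold higher in wounded opr3, at 7.42 against 4.56, while the wt arrays differed little (5.64 wounded, 5.78 control). AT5G05600 was 17.5-fold higher, at 9.08 in wounded opr3 and 4.95 in opr3 control, and both values were lower than their counterparts in wt, 11.08 wounded and 7.04 control. AT3G51450 shared this offset, at 7.76 and 4.8 in opr3 against 10.68 and 6.57 in wt.

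**Figure D2:**
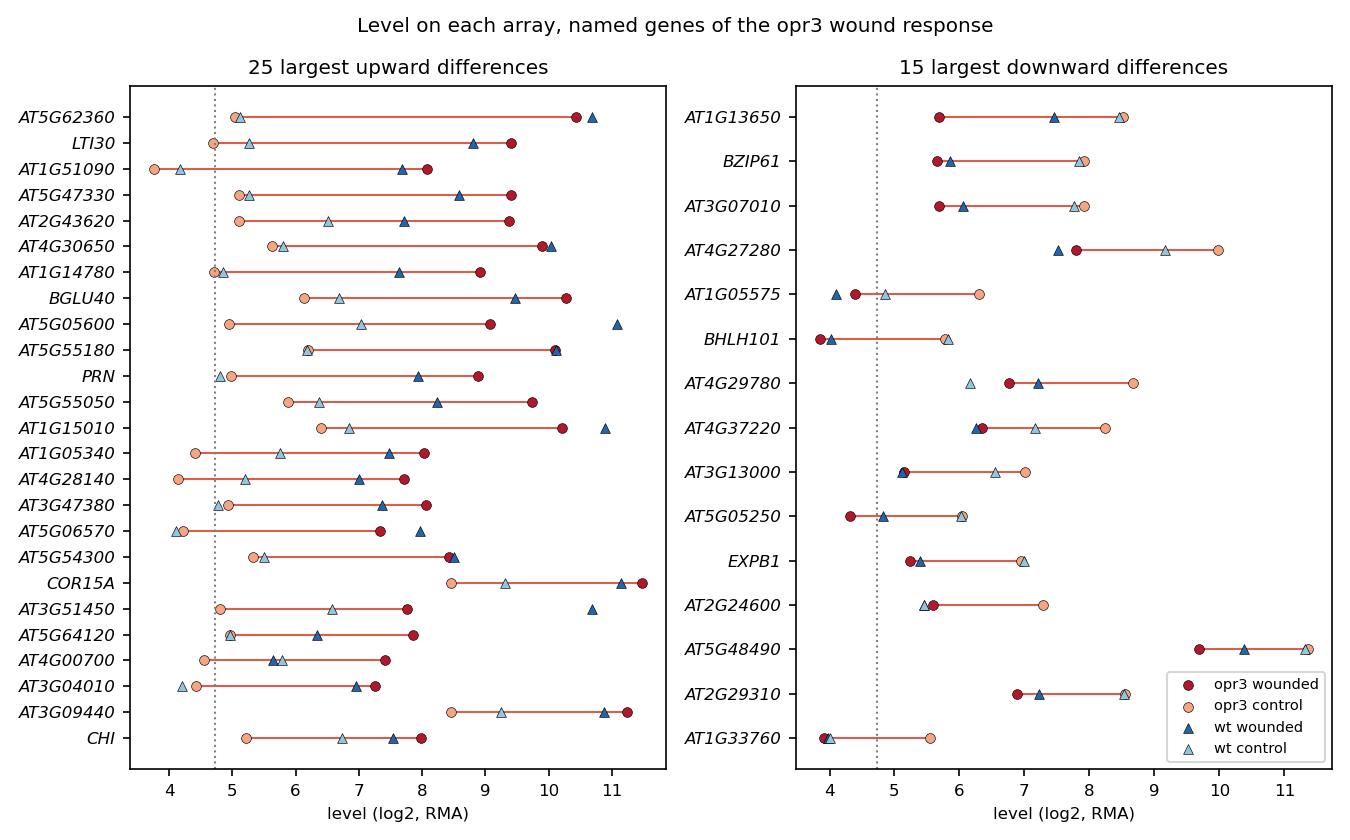
Log2 level on each of the 4 arrays for the 25 largest upward (left) and 15 largest downward (right) named differences between wounded opr3 and opr3 control; circles are opr3, triangles wt, dark symbols wounded, pale symbols control, a red line joins the opr3 arrays, and the dotted line is the filter level of 4.73. On the left 20 of 25 genes have opr3 control below wt control, and on the right 13 of 15 have it above. Both follow in part from ranking by a difference that subtracts opr3 control.

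Of the dehydrin, cold-regulated and late embryogenesis abundant (LEA) genes measured, 5 of 10 were higher in wounded opr3. Their products are hydrophilic proteins that shield membranes and enzymes when cells lose water. Of 13 named members 10 passed the filter; 5 were higher and none lower, beside 4.15% and 1.71% of all named genes. The median log2 difference over the 10 was 1.07 (0.75 without the filter, 1.63 with the filter at the 60th percentile), against -0.04 over all named genes, and in wt the same genes had a median of 0.55 with 4 higher and none lower, beside 3.26% and 1.71% of all named genes. LTI30, a membrane-binding dehydrin, was at 9.40 in wounded opr3 and 4.70 in opr3 control, about 25.9-fold higher, and at 8.80 in wounded wt and 5.27 in wt control. COR15A, whose product protects chloroplast membranes during freezing, was at 11.47 and 8.46 in opr3, 8.02-fold higher, and at 11.15 and 9.31 in wt. Wounded opr3 thus held the highest of the 4 values and opr3 control the lowest for both genes.

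Other members of this list followed at smaller size. COR15B, the neighbour and close relative of COR15A, was at 10.59 in wounded opr3 and 8.51 in opr3 control, 4.24-fold higher, against 10.00 and 8.76 in wt. The dehydrin gene COR47 started from an already high level, 11.25 in opr3 control, and reached 12.88 in wounded opr3, a 3.10-fold difference beside a 2.64-fold difference in wt. AT2G46140, annotated as a late embryogenesis abundant gene, was about 2.35-fold higher at 5.84 in wounded opr3 against 4.60 in opr3 control. Within the limit were LEA4-5 (0.90), RD2 (0.75), AT2G44060 (0.51), the dehydrin gene AT1G54410 (0.35) and COR27 (-0.11). LEA4-5 passed the filter only through the opr3 wounded array. All 10 log2 differences lay above those of wt, by as little as 0.11 for AT2G44060. The share of all named genes with this order was not computed, so nothing is read from the count. COR15A and COR15B are near-identical neighbours, and probes for them may share signal.

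Some chaperone genes were also higher in wounded opr3. Chaperones help new or damaged proteins to fold. Of 20 named chaperones and co-chaperones, a list written after the values were seen, 18 passed the filter; 4 were higher and none lower, beside 4.15% and 1.71% of all named genes, with a median of 0.52, or 0.24 before false name matches were removed. In wt no member of this list was past the limit and its median was 0.16. Members were matched by symbol or synonym, so chaperone genes without such a name are not counted. Hsp70-2, a cytosolic Hsp70, was at 9.0 in wounded opr3 and 6.47 in opr3 control, 5.76-fold higher, and at 7.92 in wounded wt and 7.03 in wt control. Fes1A, which binds Hsp70 and protects it from degradation, was at 7.72 and 5.46 in opr3, 4.8-fold higher, and at 6.52 and 5.81 in wt. In both genes the opr3 arrays enclosed the wt arrays.

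AT5G48570, annotated as the FK506-binding protein FKBP65 (ROF2), a prolyl isomerase that acts with Hsp90, was at 6.54 in wounded opr3 and 4.62 in opr3 control, about 3.78-fold higher. In wt it was at 5.01 wounded and 4.93 control, a 1.06-fold difference. Hop3, which couples Hsp70 to Hsp90, was about 2.15-fold higher at 5.23 against 4.13, and it was under the filter level on the other 3 arrays. It entered the list only through the value that makes it higher, so the count of 4 rests on it in part. Close to the limit were ATERDJ3B (0.94) and ATERDJ2A (0.83), DnaJ co-chaperones of the endoplasmic reticulum, while the related ATERDJ2B was at -0.17. ATERDJ3B differed by -0.01 in wt. Other members lay lower, with SQN, a cyclophilin that acts with Hsp90, at -0.77 and the plastid chaperonin subunit gene Cpn60beta4 at -0.76. The higher members thus included a cytosolic Hsp70 and some of its partners, while 14 of the 18 lay within the limit.

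Defence proteins made up a small list in which members split. Of 22 named defensin, thionin, chitinase and lectin genes 9 passed the filter; 4 were higher and none lower, beside 4.15% and 1.71% of all named genes, and the median was 0.23, or -0.03 without the filter. CHI, a putative chitinase, was at 7.99 in wounded opr3 and 5.22 in opr3 control, 6.79-fold higher, against 7.54 in wounded wt and 6.73 in wt control. Wounded opr3 was 1.36-fold above wounded wt, and opr3 control 2.84-fold below wt control. LCR69, a plant defensin gene, was 4.82-fold higher, at 7.35 and 5.08 in opr3 and 7.16 and 5.48 in wt. PDF1.4, another defensin gene, was about 2.54-fold higher (6.01 and 4.66 in opr3, 5.06 and 4.54 in wt). PDF1.2, the defensin gene used as a marker of joint jasmonate and ethylene signalling, was at 5.01 in wounded opr3 and 5.41 in opr3 control, a difference of -0.40, with 6.06 and 6.12 in wt.

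The redox list held 5 higher and 0 lower members of 20 that passed the filter, of 24 named, with a median of 0.00. Over all named genes 4.15% were higher and 1.71% lower. PRN, a pirin that interacts with a G protein subunit and takes part in abscisic acid responses, was at 8.89 in wounded opr3 and 4.98 in opr3 control, 14.9-fold higher, and at 7.93 and 4.8 in wt. PRN is not a peroxidase, glutaredoxin or thioredoxin, so the count of 5 depends on keeping it in the list. AT5G64120, annotated as the cell wall peroxidase PRX71, was 7.40-fold higher at 7.85 against 4.97 in opr3, with 6.34 in wounded wt and the same 4.97 in wt control. AT2G41480, annotated as peroxidase 25, was 2.48-fold higher. GRX480, a glutaredoxin that binds TGA transcription factors, was at 6.86 in wounded opr3 and 4.62 in opr3 control, about 4.73-fold higher, and at 6.42 and 6.01 in wt. For GRX480 the opr3 control array stood apart from the other 3, which lay between 6.01 and 6.86.

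Also in this list, ATMDAR2, which regenerates ascorbate, was 2.23-fold higher in opr3 and 2.41-fold in wt. Plastid thioredoxin genes were within the limit, from TRXF2 at -0.71, ATHM2 and NTRC at -0.43 each, THX at -0.11 and TY1 at -0.04 to ty2 at 0.03. AER, an alkenal reductase that detoxifies reactive carbonyls from lipid peroxidation, was 3.29-fold higher at 8.26 against 6.54 in opr3, and 2.79-fold higher in wt. AER was the only one past the limit among 18 detoxification genes that passed the filter, of 26 named. The list's median was -0.17, and 4.15% of all named genes were higher. Among methionine sulfoxide reductases of type B, which repair oxidised methionine, MSRB9 was 2.40-fold higher and MSRB5 2.12-fold lower. They belong to a list of 4, written after the values were seen, with a median of 0.14.

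Jasmonate genes split between members that were higher in wounded opr3 and members that were not. Of 17 named genes of jasmonate signalling, turnover and the MYC branch 13 passed the filter; 4 were higher (GRX480, JAL23, PDF1.4 and JMT) and none lower, beside 4.15% and 1.71% of all named genes, with a median of -0.03, against 5 higher and a median of 0.52 in wt. Only 9 of the 13 passed the filter on an opr3 array. JAL23, a jacalin-related lectin, was at 6.07 in wounded opr3 and 4.03 in opr3 control, about 4.13-fold higher, and at 9.65 in wounded wt and 5.76 in wt control. Wounded opr3 was 11.9-fold below wounded wt, and opr3 control about 3.33-fold below wt control. JMT, the jasmonate methyltransferase, was under the filter level on both opr3 arrays (4.63 and 3.56), so its difference of 1.07 lies between values near background. BSMT1, a salicylate and benzoate methyltransferase, was at 3.61 in wounded opr3 and 3.86 in opr3 control, under the filter level, against 8.91 in wounded wt and 3.97 in wt control. JRG21, a jasmonate oxidase, was likewise at 4.1 and 4.03 in opr3, against 9.13 and 4.44 in wt. JAL34, another jacalin-related lectin, was at 5.41 and 5.55 in opr3, against 7.67 and 5.7 in wt. These 3 were thus at least 2-fold higher in wt and within the limit in opr3, a difference that was not tested. They do not stand for their families, since relatives without a matching symbol or synonym could be missing from the list. OPCL1, an acyl-CoA ligase that acts after OPR3, was 1.6-fold higher in opr3 and 2.45-fold in wt, and AIM1 of peroxisomal β-oxidation was at -0.04. 

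Few genes of other hormones were past the limit. GH3.3, which joins amino acids to auxin, was at 7.45 in wounded opr3 and 4.87 in opr3 control, 6.00-fold higher, and at 6.25 and about 4.22 in wt. It was the only one past the limit of 8 auxin genes that passed the filter, of 15 named, while 4.15% of all named genes were higher. The auxin median was -0.18, or 0.30 with the filter at the 60th percentile. GID1B, a gibberellin receptor, was about 2.42-fold higher (5.33 and 4.05), and its relative GID1A lay just inside the limit at 0.97. EXO, a brassinosteroid-responsive gene of leaf growth, was 2.51-fold lower, at 7.14 in wounded opr3 and 8.47 in opr3 control, while the wt arrays were at 6.39 and 6.33. Its opr3 control value was the highest of the 4 arrays. Cytokinin, gibberellin and brassinosteroid genes together had a median of 0.24 over 7 that passed, of 12 named, or -0.02 without the filter.

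Calcium and immune signalling genes lay on both sides. GLR2.7, a glutamate receptor-like channel, was 3.04-fold higher at 7.84 in wounded opr3 and 6.23 in opr3 control, with 7.15 and 6.80 in wt. CML41, a calmodulin-like protein of plasmodesmata, was about 2.31-fold higher in opr3 and 2.28-fold in wt. They were the members past the limit among 10 calcium genes that passed, of 16 named (median 0.27), beside 4.15% higher of all named genes. CML38 differed by -0.48 in opr3 and 0.84 in wt, with its opr3 control level of 6.67 above the 5.85 of wt control. WRKY22, a transcription factor of immune signalling, was at 5.52 in wounded opr3 and 6.92 in opr3 control, 2.65-fold lower, but at 6.71 in wounded wt and 5.88 in wt control. The highest WRKY22 value was thus that of opr3 control. WRKY22 was the only one past the limit of 6 WRKY genes that passed, of 7 named (median -0.23), beside 1.71% lower of all named genes.

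Ubiquitin ligases, which mark proteins for degradation, had 2 higher and 2 lower members among 16 that passed, of 20 named. Over all named genes 4.15% were higher and 1.71% lower. The list's median was 0.07, or 0.30 with the filter at the 60th percentile. RING1, a membrane RING ligase linked to programmed cell death, was 2.95-fold higher at 10.25 in wounded opr3 and 8.69 in opr3 control, whereas the wt arrays were at 9.41 and 9.35. PUB19, a U-box ligase of drought and abscisic acid responses, was 2.68-fold higher (8.02 and 6.59). PUB25 and PUB26, closely related U-box ligases, were both lower. PUB25 was about 2.97-fold lower at 4.67 and 6.24, and PUB26 2.07-fold lower at 5.96 and 7.01. PUB23, another U-box ligase, which damps pattern-triggered immunity, lay at -0.98 in opr3 against 1.10 in wt. RING1 and PUB23 were the members in which the lines stood furthest apart.

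Among transcription factors, members of the AP2/ERF and bZIP lists are described here. WRKY22 of the WRKY list and BHLH101 of the bHLH list were also past the limit and are described with other genes. tny (TINY), an AP2/ERF factor of cold and drought responses, was 4.28-fold higher at 8.25 in wounded opr3 and 6.15 in opr3 control, and 5.69-fold higher in wt. HYH, a bZIP factor of light signalling related to HY5, was 2.53-fold higher at 6.09 and 4.75. BZIP61, a bZIP factor, was 4.78-fold lower, at 5.65 in wounded opr3 and 7.91 in opr3 control, much as in wt (5.86 and 7.84). BZIP34, its close relative, was about 2.01-fold lower (-1.01 on the log2 scale), a call lost on quantile (-0.99) and cyclic loess (-0.95) scaling. In all, 14 bZIP genes passed of 23 named, with 1 higher and 2 lower, beside 4.15% and 1.71% of all named genes. Their median was -0.07. None of 13 homeobox and MADS genes that passed, of 45 named, was past the limit, nor any of 3 MYB genes.

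Cell wall genes with a matching symbol or synonym were near balance, and genes with only a locus tag could be missing from this list. Of 86 named 50 passed the filter. Of these 2 were higher and 2 lower, beside 4.15% and 1.71% of all named genes, with a median of 0.02. CSLD2, a cellulose synthase-like protein, was 2.67-fold higher (8.58 and 7.16) and GAUT15, a galacturonosyltransferase-family protein, 2.48-fold higher (6.82 and 5.51). Both expansin genes past the limit, whose products loosen walls in growing tissue, were lower. EXPB1 was 3.24-fold lower at 5.24 in wounded opr3 and 6.94 in opr3 control, and EXPA8 2.40-fold lower at 9.89 and 11.15, with near-identical values in wt (5.4 and 6.99, 9.93 and 11.29).

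In carbohydrate metabolism, BGLU40, a β-glucosidase, was 17.7-fold higher, at 10.28 in wounded opr3 and 6.14 in opr3 control, and at 9.47 and 6.69 in wt. BGLU25 was 4.22-fold higher in opr3 and 4.05-fold in wt. BGLU40 and BGLU25 were the members past the limit of 7 β-glucosidase genes that passed, of 22 named, beside 4.15% higher of all named genes. AMY1, a secreted α-amylase, was 2.22-fold higher at 6.14 and 4.99, and DPE1, the plastid disproportionating enzyme of starch breakdown, 2.87-fold lower at 4.89 and 6.41. Starch, sugar starvation and senescence genes had a median of -0.16 over 17 that passed, of 20 named. Among sugar transport genes SWEET4, a sugar exporter, was 2.01-fold higher (6.11 and 5.10), and the sugar porter gene SFP2 was 2.17-fold lower (5.09 and 6.21). cwINV6, of the family of cell wall invertases and fructan-cleaving enzymes, was about 2.0-fold higher in opr3 (5.57 and 4.57) and 1.59-fold lower in wt (4.61 and 5.28). Sugar and water transport genes, the list that holds these 3, had 2 higher and 1 lower of 13 that passed, of 22 named. Over all named genes the shares were 4.15% and 1.71%. The calls of SWEET4 (1.01) and cwINV6 (1.0) lie on the limit: with each array centred on its median they were 0.95 and 0.94, and SWEET4 was at 0.99 on quantile scaling.

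Genes of defence metabolites were within the limit with few exceptions. BCAT4, which starts the methionine chain elongation of aliphatic glucosinolates, was 2.5-fold higher in opr3 (10.25 and 8.93) and 2.42-fold in wt (11.17 and 9.90). It was the only one past the limit of 8 glucosinolate, tryptophan and sulfur genes that passed, of 11 named; their median was 0.44, against 1.0 in wt, where 4 were higher. Small-molecule glycosyltransferases had 1 higher and 1 lower of 26 that passed, of 52 named (median 0.08), against 7 higher in wt. Over all named genes 4.15% were higher and 1.71% lower in opr3, and 3.26% were higher in wt. CYP71B23 was the only one higher of 13 cytochrome P450 genes that passed, of 24 named (median -0.18).

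The largest downward differences were smaller than the upward ones. Folds of the 15 largest named ones ran from 3.10 to 7.05, and 3 genes had a symbol: BZIP61, EXPB1 and BHLH101. AT1G13650 was lowest, at 5.69 in wounded opr3 and 8.51 in opr3 control, 7.05-fold lower, with 7.45 in wounded wt and 8.46 in wt control. BHLH101, a factor of the iron deficiency response, was about 3.76-fold lower at 3.86 and 5.77, and about 3.49-fold lower in wt. AT3G07010 was 4.75-fold lower (5.68 and 7.92 in opr3, 6.06 and 7.76 in wt). In wt 9 of the 15 were past the limit, and all 15 had a larger difference in opr3, 5 of them by at least 2-fold.

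In several of these genes the opr3 control array alone was high. AT2G24600 was at 5.59 in wounded opr3 and 7.28 in opr3 control, with 5.45 and 5.46 in wt. AT1G33760 was at 3.92 and 5.55 in opr3, about 3.10-fold lower, with 3.97 and 4.0 in wt. AT4G29780 was at 6.77 and 8.67 in opr3, 3.73-fold lower, with 7.21 in wounded wt and 6.17 in wt control. Over the 15 genes opr3 control exceeded wt control in 13, and 4 had a wounded opr3 level under the filter level. Here the ranking likewise favours high opr3 control values and larger differences in opr3 than in wt.

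Photosynthesis genes lay close to 0. None of 13 nuclear photosynthesis genes that passed, of 14 named, was higher, and 1 was lower, beside 4.15% and 1.71% of all named genes. Their median was -0.08. The lower one, LHCB4.3, a light-harvesting protein of photosystem II, was 2.02-fold lower at 7.92 in wounded opr3 and 8.94 in opr3 control, and differed by 0.18 in wt; on cyclic loess scaling the opr3 difference was -0.96. Of 69 plastid-encoded probe sets none was past the limit; 43 were below 0, 46 lay within 0.25 of it and the median was -0.08. They ranged from rpl20, of the plastid ribosome, at -0.79 to psaJ, of photosystem I, at 0.53. Nuclear genes for CRR proteins of the plastid NDH complex, a list written after the values were seen, had a median of -0.52. Of 7 named 6 passed, with CRR42 2.62-fold lower at 6.32 and 7.71, and their median in wt was -0.54.

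Over all 47 lists, 35 had at least 3 members that passed, and their medians ran from -0.52 to 1.07. The 415 genes measured in any list included 47 higher and 19 lower, beside 4.15% and 1.71% of all named genes, and 8 of the lists were written after the values were seen. In 4 of the 35 lists no member was past the limit. Dehydrin and cold genes had the highest median.

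**Figure D3:**
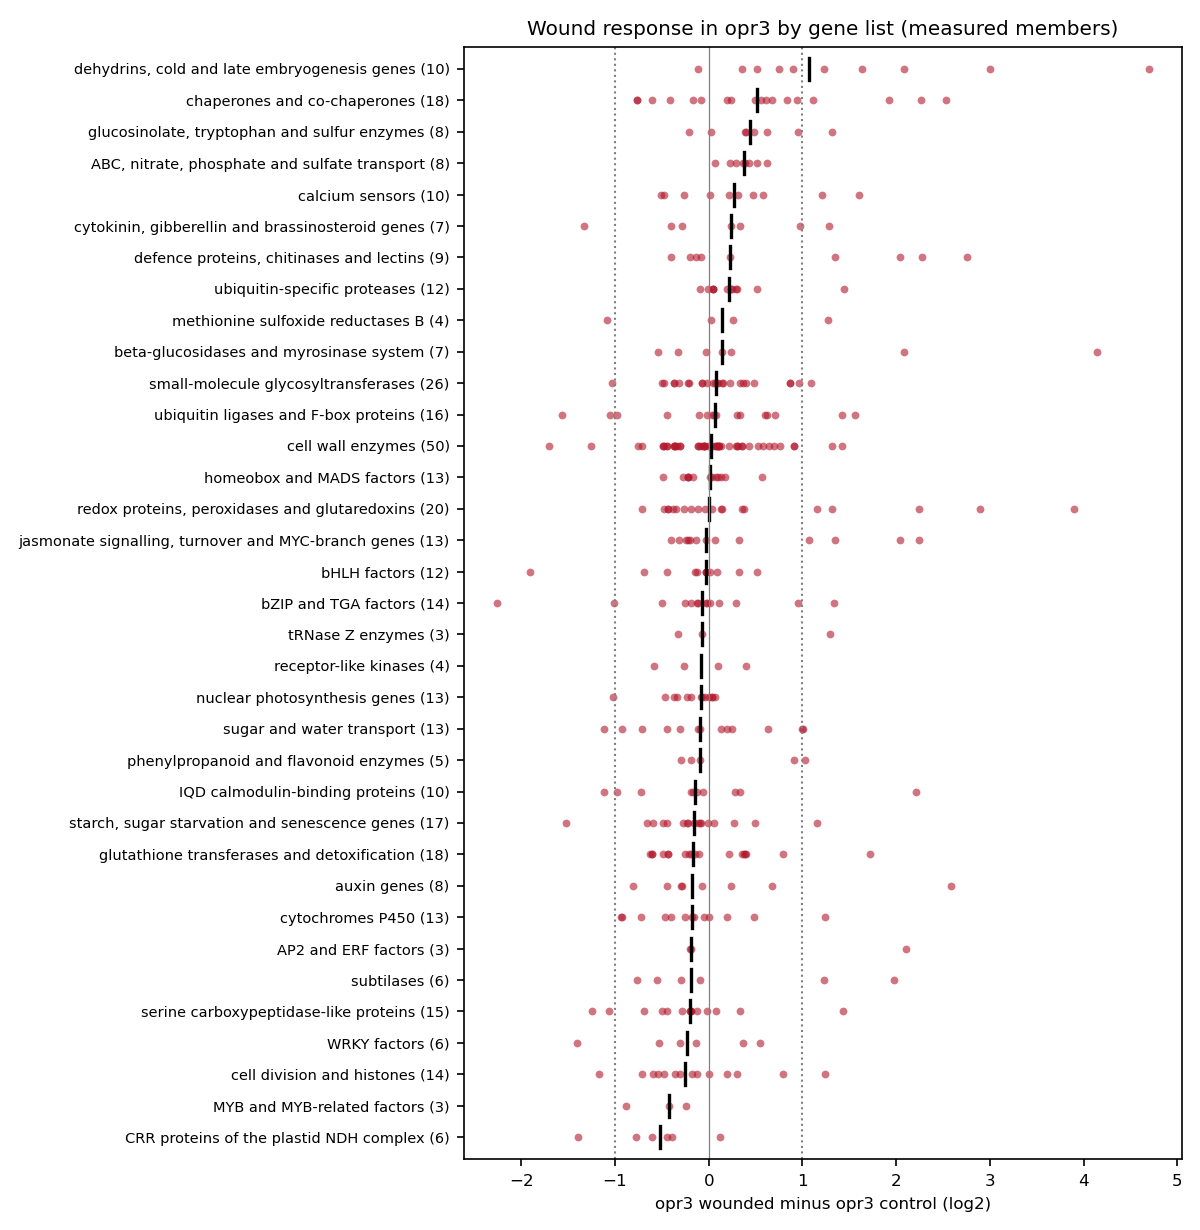
Log2 difference between wounded opr3 and opr3 control for each gene of the 35 lists with at least 3 members past the filter (number in brackets); red points are genes, black bars list medians, and dotted lines mark the 2-fold limit. Medians run from -0.52 for CRR proteins to 1.07 for dehydrin and cold genes, and most lists lie around 0 with single genes beyond the limit.

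Set beside wt, most of the opr3 response was shared in direction. Of the 708 probe sets higher in opr3, 350 (49.4%) were also at least 2-fold higher in wt, against 3.95% of all probe sets used. Another 155 (21.9%) were 1.5-fold to 2-fold higher (4.38% of all), 142 (20.1%) were higher by less, and 61 (8.62%) lay in the opposite direction. Of the 245 lower ones, 80 (32.7%) were past the limit in wt (1.79% of all), and 96 (39.2%) lay between 1.5-fold and 2-fold (6.73% of all). A further 55 (22.4%) were lower by less and 14 (5.71%) were opposite. The opr3 response was within 2-fold of the wt response for 532 (75.1%) of the higher and 212 (86.5%) of the lower probe sets. It was at least 2-fold larger for 152 (21.5%) and 33 (13.5%), and at least 2-fold smaller for 24 (3.39%) and 0. Such differences between the lines were rarer over all probe sets used. There 302 (2.07%) had an opr3 response at least 2-fold above and 193 (1.32%) at least 2-fold below that of wt. Since the sets were picked for a large opr3 response, larger opr3 than wt responses among them follow in part from the choice, and the shares are a description.

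**Figure D4:**
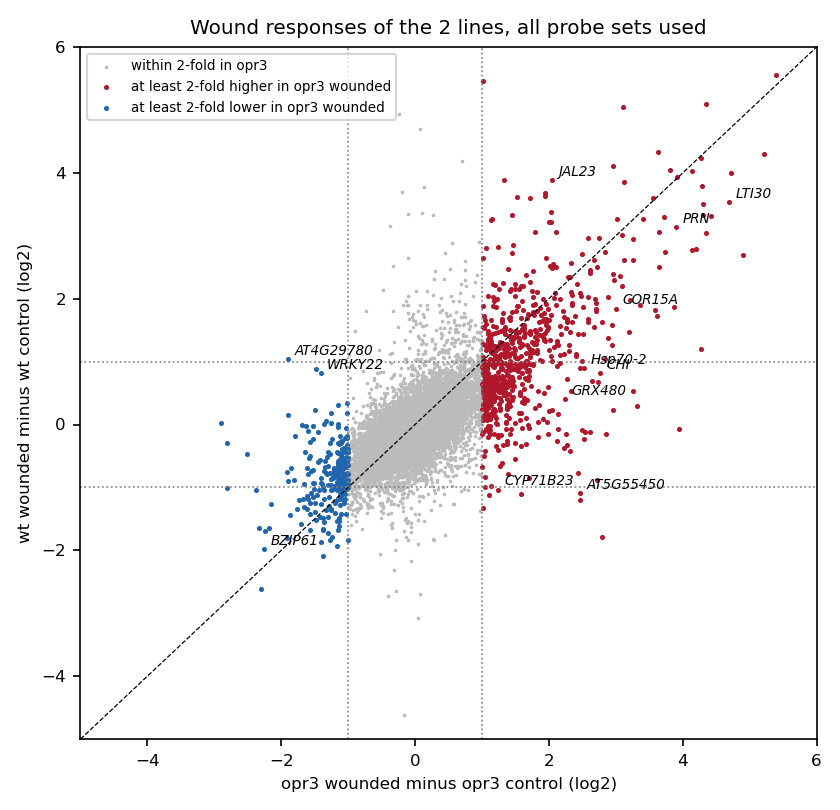
Log2 difference between wounded and control arrays in opr3 (horizontal) and wt (vertical) for the 14599 probe sets used; red points are at least 2-fold higher and blue points at least 2-fold lower in wounded opr3, dotted lines mark the limit and the dashed line equal responses. LTI30, COR15A, CHI and GRX480 lie below the dashed line, JAL23 above it, and AT5G55450 and AT4G29780 in quadrants of opposite direction.

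The 152 larger increases lay partly in the control and partly in the wounded arrays. Wounded opr3 lay at least 1.5-fold above wounded wt in 129 of the 152 (4.91% of all probe sets used), and opr3 control at least 1.5-fold below wt control in 69 (2.27% of all), with 51 showing both. Both parts enter the difference that chose the 152, so nothing is read from these counts against the shares over all. The medians were 1.0 for wounded opr3 minus wounded wt and -0.55 for opr3 control minus wt control, and the wounded part was the greater in 115. Fes1A and AT5G48570 were of this kind, with the wounded arrays 2.29-fold and 2.88-fold apart and the controls 1.27-fold and about 1.24-fold. CHI and GRX480 belonged to the 37 in which the control part was the greater. The wounded part, here and for the decreases below, uses the wounded wt array with its 5′ and 3′ imbalance. How far this imbalance enters these counts was not tested. Among all probe sets used, wounded opr3 was at least 2-fold above wounded wt in 195 (1.34%) and below in 242 (1.66%), and opr3 control was at least 2-fold above wt control in 61 (0.418%) and below in 84 (0.575%).

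The 33 larger decreases had the opposite make-up. In 11 of the 33 wounded opr3 lay at least 1.5-fold below wounded wt (3.77% of all probe sets used), in 24 opr3 control lay at least 1.5-fold above wt control (1.66% of all), and 2 showed both, again as parts of the difference that chose them. The medians were -0.38 for the wounded and 1.18 for the control arrays, and the control part was the greater in 22. AT2G24600, AT4G29780 and EXO, given above, had opr3 control as the highest array, and they are examples of this pattern. WRKY22 also had opr3 control as its highest array, but its wounded part was the greater (-1.19, against 1.04 for the controls). The opr3 control array enters both the opr3 response and the difference between controls, so a single high or low value on it moves both, and 1 array cannot separate the line from the array.

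**Figure D5:**
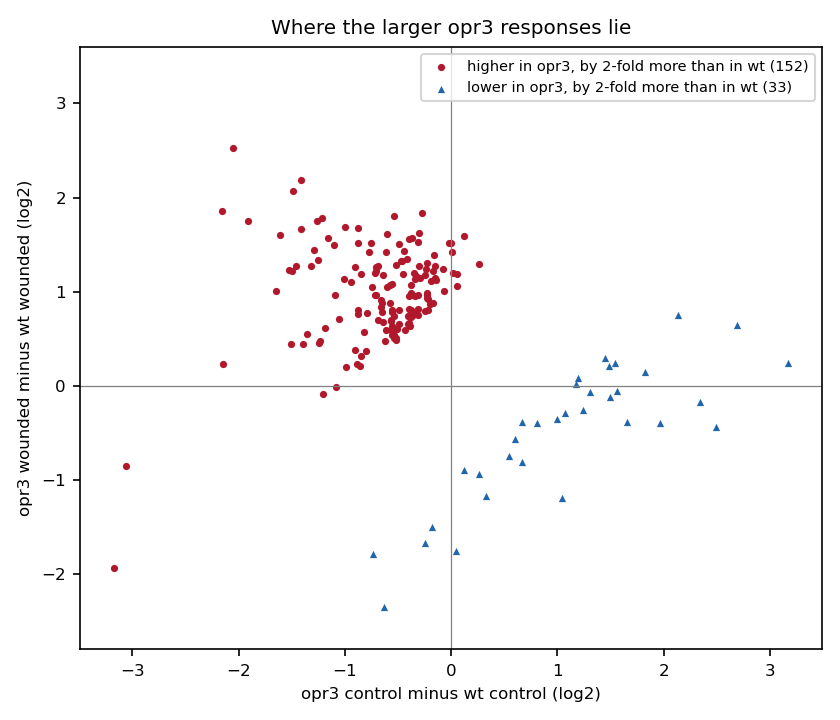
For the 152 probe sets higher (red circles) and 33 lower (blue triangles) in wounded opr3 by at least 2-fold more than in wt, the log2 difference of opr3 control minus wt control (horizontal) against that of wounded opr3 minus wounded wt (vertical). The circles centre at -0.55 and 1.0, the triangles at 1.18 and -0.38.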

How the data were processed

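Per the submitters' processing notes, the deposited log2 levels came from RMA and Partek, both run by the authors and named without versions; RMA corrects background, equalises the distributions of the arrays and summarises probes. Among the 22810 probe sets deposited, 64 are array controls. Gene names came from a platform annotation table updated through the TAIR10.1 gene table: 13513 probe sets had 1 gene (13436 matched), 503 several, and 8730 plant probe sets were unnamed here, so 7972 of those used had 1 gene. The filter level was the 40th percentile of all values. Differences of single arrays were taken in Python 3.11.15 (pandas 2.3.3, numpy 2.4.6), and alternatives in R 4.3.3 (limma 3.58.1); the steps were tested on simulated data. Lists used 1 probe set per gene, that with the highest mean (7875 genes), and false name matches were removed by gene identity after values were seen. List members were matched by symbol or synonym, so genes of a family that carry only a locus tag could be missing. Named were the 25 largest upward and 15 largest downward differences, members of described lists past the limit (at most 8) and up to 4 others, genes past the limit in opposite directions in the lines, and the ends of the plastid range; other genes were named after their values were seen. The probe sets, the lists and these rules were chosen with earlier results of these data known.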

Additional observations from a re-analysis of the deposited data

Results flagged for a closer look

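Past the 2-fold limit in opposite directions in the lines were 8 probe sets, of which 7 were higher in wounded opr3 and 4 had 1 named gene. The difference between the responses was not tested in any of them, since each combines 4 single arrays. AT5G55450 was at 10.32 in wounded opr3 and 7.85 in opr3 control, against 8.24 in wounded wt and 9.34 in wt control, and its response was 3.56 higher in opr3 on the log2 scale. CYP71B23, a cytochrome P450 gene, was at 8.50 and 7.26 in opr3 and 6.98 and 8.02 in wt, a difference of 2.27. AT1G72060 was at 8.59 and 7.49 in opr3 and 6.98 and 8.10 in wt, a difference of 2.22. For these 3 genes opr3 control lay below wt control and wounded opr3 above wounded wt. AT4G29780 was at 6.77 and 8.67 in opr3 and 7.21 and 6.17 in wt, a difference of -2.94, and opr3 control was its highest array.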

How the results depend on the processing

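The limits are those of 1 array a group: no error can be given, and the stand-in for a spread was 0.19, the robust SD of log2 differences between opr3 control and wt control. No paired analysis was possible because each group has 1 array, and leaving out an array leaves no response. The promoter motif search was not run, as no sequence table was used here. All 992 recomputed values of named genes and 327 of 353 counts and list medians stayed within this spread, or within 1.5 times for counts. Of the counts and list medians 26 moved. Reversal was scored only for named genes past the limit, where there were 0. Some list medians near 0 did change sign, such as that of defence genes, from 0.23 to -0.03 without the filter. Taking the mean over the probe sets of a gene shifted none of the 248 named genes. Their largest shift was 0.07 with median centring, 0.09 with quantile scaling and 0.1 with cyclic loess. These scalings act on levels already equalised by RMA, so the 992 say little about error. Of the named genes past the limit, 3 lay within it with median centring (CCR2, SWEET4 and cwINV6), 2 with quantile scaling (SWEET4 and BZIP34) and 2 with cyclic loess (BZIP34 and LHCB4.3). Scaling the arrays anew moved the median of all probe sets to -0.09 (arrays centred on their medians), -0.06 (quantile) and 0.01 (cyclic loess), and the counts to 638 and 305, 688 and 279, and 785 and 212; the share higher was 74.3% as reported, against 67.7%, 71.1% and 78.7%. At a 1.5-fold limit 1649 probe sets were higher and 1124 lower (59.5% higher), 820 and 518 of them past the limit in wt, 50 lower ones exceeded their wt response by 2-fold or more, and list members numbered 74 and 49. At a 3-fold limit these were 279 and 36 (88.6%), 126 and 7 in wt, 87 and 15 larger, and 21 and 3. Without the filter the median of dehydrin genes was 0.75, of defence genes -0.03, and of cytokinin, gibberellin and brassinosteroid genes -0.02. At the 60th percentile it was 1.63 for dehydrin genes, -0.40 for cytochromes P450, 0.30 for ubiquitin ligases and 0.30 for auxin genes. With the filter on the opr3 arrays alone the phenylpropanoid median was 0.36. Before false name matches were removed, an alternative chosen after seeing the data, it was -0.08 for defence, 0.03 for AP2/ERF and 0.24 for chaperone genes. The cause of these shifts was not tested beyond the change in which genes enter. Values near the filter level are bounded by background, so their folds are approximate.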

Other observations

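Several further families, listed after the values were seen, had members past the limit. Subtilases, a family of secreted proteases, had 2 higher of 6 that passed, of 10 named, beside 4.15% of all named genes. They were SBT3.5, 3.95-fold higher at 7.28 in wounded opr3 and 5.30 in opr3 control, and SBTI1.1, 2.34-fold higher at 5.99 and 4.76. IQD23, a calmodulin-binding scaffold protein, was 4.64-fold higher at 7.22 and 5.01, and iqd21 of the same family 2.17-fold lower at 6.64 and 7.76. They were the members past the limit of 10 IQD genes that passed, of 15 named (median -0.15). Among serine carboxypeptidase-like genes scpl48 was 2.69-fold higher, and SCPL34 (2.37-fold) and scpl42 (2.08-fold) were lower. Of the 15 that passed, of 29 named, 12 lay within the limit, with a median of -0.20. The tRNase Z gene TRZ3 was 2.45-fold higher and the ubiquitin-specific protease gene UBP23 2.72-fold. Each was the only member past the limit, of 3 tRNase Z genes and 12 ubiquitin-specific protease genes that passed. Over all named genes 4.15% were higher and 1.71% lower.

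Of 2454 pairs of named genes that lie next to each other on a chromosome, 9 had both members higher and 1 had both lower. The pair with AT5G62360, the strongest gene, had AT5G62350 at a log2 difference of 1.6 beside 5.4, and the pair of AT3G51440 and AT3G51450 had 1.68 and 2.96. In the lower pair AT2G29300 was at -1.03 and AT2G29310 at -1.66. Shared probes within such pairs were not tested. For the 91 genes with several probe sets in use, the median gap between the probe sets of a gene was 0.17 on the log2 scale and the largest 0.87. In 4 of these genes any probe set was past the limit, and only 1 of the 4 had all its probe sets past it.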
